A study of Arabidopsis thaliana with 11 samples.

Results

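Alpha-expansins are small secreted proteins that let plant cell walls extend under turgor, most strongly at acid pH, and they act on the contacts between cellulose and xyloglucan rather than by cutting the wall polymers. Arabidopsis carries a large family of them, named EXPA and a number, and single members are known for growth of particular organs or cell types, such as EXPA7 and EXPA18 in root hairs. The 7 genes described here are EXPA4, EXPA7, EXPA8, EXPA9, EXPA15, EXPA16 and EXPA20. They were taken as all probe sets that the platform's probe table pairs with 1 gene named EXPA and a number, and that had a deposited signal of at least 100 in at least 3 of 11 arrays. The table held 22810 probe sets, of which 13513 were paired with 1 gene and 10 of those with an EXPA gene.

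RNA of wild-type Columbia-0 plants was hybridised to Affymetrix ATH1 arrays, which read each transcript with a set of short probes near its 3' end. Flowers, taken as open flowers together with closed buds, gave 4 arrays, the elongating upper 2 inches of the stem freed of siliques and pedicels 4 arrays, and expanding leaves 3 arrays. Flowers and stems were harvested on day 29 after germination and leaves on day 15, all from plants kept at day and night temperatures of 25 and 20 °C, in a greenhouse or in a growth chamber. The stated day length was 16 h for every array but flower replicate 4, whose text gives none. The greenhouse arrays were flower replicates 3 and 4, stem replicate 3 and leaf replicates 2 and 3. The growth chamber arrays were flower replicates 1 and 2, stem replicates 1 and 2 and leaf replicate 1. Stem replicate 4 has a title code for the greenhouse and a protocol text for the growth chamber, and it was left out of comparisons of site. Flower and stem RNA was extracted with Trizol and cleaned on a silica column, and leaf RNA with Trizol only, so organ, preparation and, against leaf, age cannot be told apart. Nothing in the labels ties replicates to separate plants, so the p-values rest on spread between arrays that may be technical.

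Anther and secondary wall markers were highest in their own organs, while the summed photosynthesis genes overlapped between leaf and stem. The summed normalised intensity of 4 anther genes (ATA27, AMS, EMS1 and A9) was 7012 to 7997 in flower, 58.8 to 190.1 in stem and 171 to 200.3 in leaf, and that of 3 secondary wall genes (IRX15, IRX15-L and GUT2) was 333 to 499.5 in flower, 3613 to 7815 in stem and 382 to 499.6 in leaf. The sum of 3 photosynthesis genes (RCA, PRK and SBPASE) was 21380 to 32710 in flower, 42870 to 59630 in stem and 59530 to 69810 in leaf. The stem and leaf ranges of the sum overlapped, as did those of SBPASE (10124 to 19553 in stem, 14164 to 17234 in leaf). RCA (20298 to 26304 in stem, 28458 to 34212 in leaf) and PRK (9872 to 13776 and 16905 to 18368) were higher in leaf without overlap. None of 3 root hair markers sought (COBL9, RSL4 and PRP3) had a named probe set. The actin 3'/5' signal ratio, which is raised where RNA is degraded or copied incompletely, was highest in stem replicate 3 (12.2) and flower replicate 3 (8.23) and 1.83 to 4.49 in the other 9 arrays. For stem replicates 2 and 3, and again for flower replicates 2 and 3, the scaling factor printed in the label of 1 array brought GapC, a glycolytic gene, to the stated 8500 on the other array of the pair. The descriptions of these 4 arrays thus hold crossed factors, which leaves their site labels in doubt, although their title codes give the same sites.

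Of the 26 alpha-expansin genes in the RefSeq gene table, 10 had a probe set of their own by the probe table, 4 shared one with another member and 12 had none that it names. The 12 unnamed ones include EXPA1, EXPA5 and EXPA10 and were not analysed here. Of the 10 genes with their own probe set, EXPA18, EXPA21 and EXPA24 fell short of the signal rule. EXPA20 stood just inside it, with a third-highest deposited signal of 118, and EXPA18 and EXPA21 were the nearest outside, with third-highest signals of 72.0 and 68.9. That of EXPA24 was 45.0. EXPA20 entered through 3 flower arrays and 1 leaf array, and no stem array reached 100. EXPA7 entered through 2 flower arrays, 2 stem arrays and 1 leaf array. EXPA16 was at 100 or more in 9 arrays, and EXPA4, EXPA8, EXPA9 and EXPA15 were in all 11. Intensities of different probe sets are not compared with each other below.

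**Figure D1:**
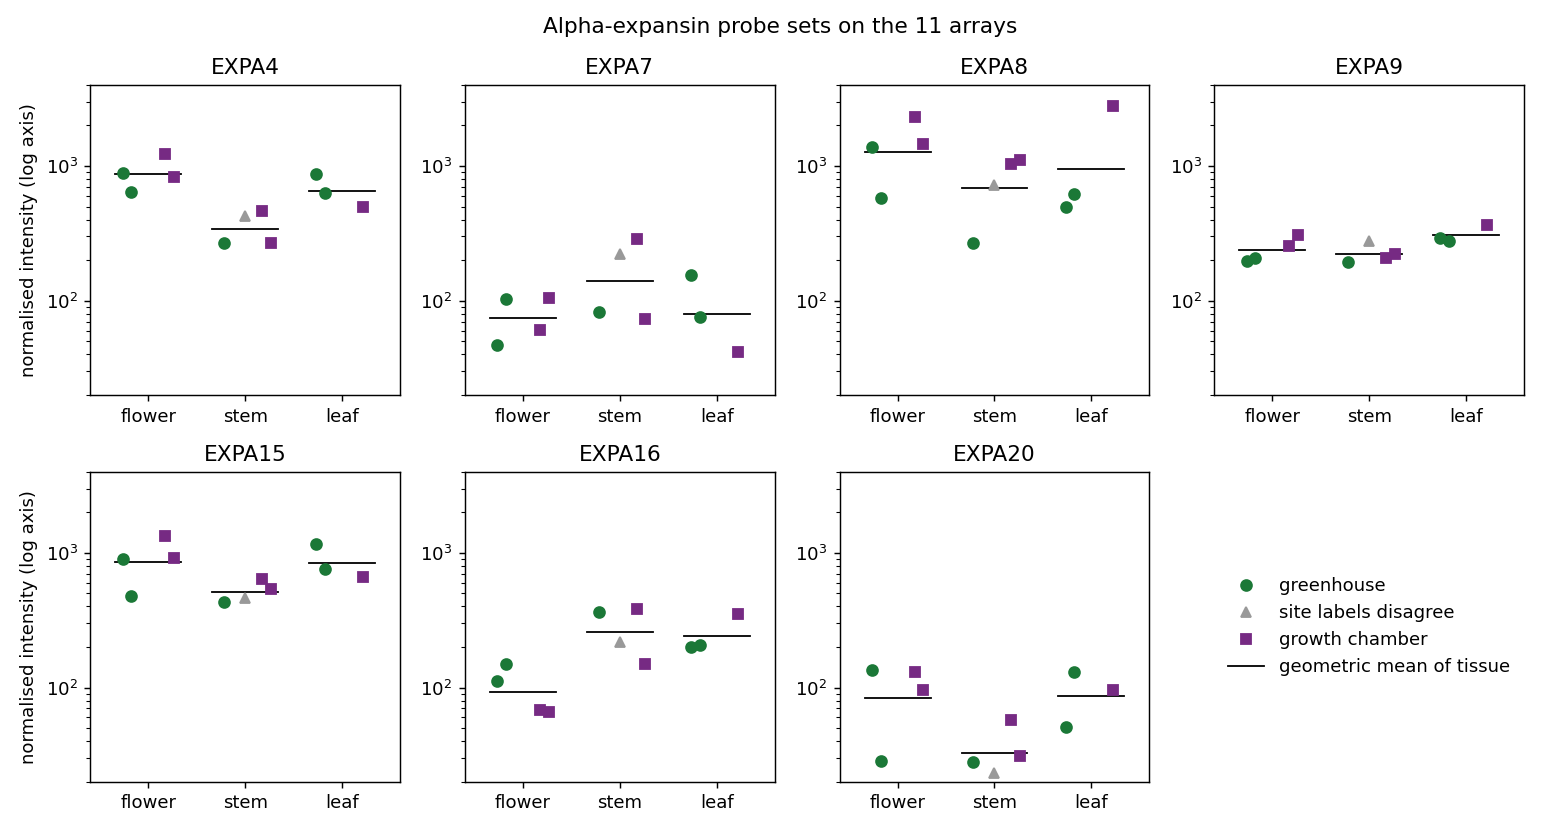
Normalised intensity (log axis) of the 7 alpha-expansin probe sets on each of the 11 arrays, by organ, with greenhouse arrays as circles, growth chamber arrays as squares and the stem array with conflicting site labels as a triangle. Lines are geometric means. EXPA4 is lower in stem than in flower without overlap, and within each organ the EXPA8 growth chamber arrays lie above the greenhouse arrays.

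Flower and stem shared age and RNA preparation, so their contrast is given first. EXPA4 (AT2G39700) had a normalised intensity of 1223, 829, 892 and 638 in flower replicates 1 to 4, against 463, 267, 267 and 424 in stem replicates 1 to 4. No flower array was as low as any stem array. EXPA4 was higher in flower by 1.26 ± 0.24 on the log2 scale (SE, n = 4 each), which is 2.40-fold (limma adjusted p = 0.0011). In leaf, EXPA4 had 495, 876 and 629, between the other organs. The log2 difference of flower over leaf was 0.41 (95% interval -0.15 to 0.97, adjusted p = 0.262), and these groups overlapped. Stem was lower than leaf by a log2 fold change of -0.85 ± 0.26 (SE), without overlap. Its adjusted p was 0.0208, and it missed the minimum log2 change of 1 that a call also required. It was called within greenhouse arrays (-1.38, 1 stem array) and without leaf replicate 1 (-1.04). Within growth chamber arrays, with 1 leaf array, it was -0.45 (adjusted p = 0.477), and without leaf replicate 2 it was -0.64 (adjusted p = 0.117). It was -0.36 with GapC scaling, which raised flower over leaf to a called 1.05. In bulk RNA, fewer cells that express a gene and less of its RNA per cell cannot be told apart.

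The EXPA4 difference of flower over stem was also called within each growth site, though the greenhouse held 1 stem array, replicate 3, which had the highest actin 3'/5' ratio and a site label in doubt, and was assumed to vary like the other arrays. The log2 fold change was 1.397 among greenhouse arrays (adjusted p = 0.0229) and 1.44 among growth chamber arrays (adjusted p = 0.0177). Over 26 alternative settings it ranged from 1.09 to 1.44 and was called in all 26. These settings are not separate checks: no minimum fold cannot lose a call, and omitted leaf arrays hardly touch this contrast.

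EXPA16 (AT3G55500) was the member called lower in flower. It had 67.7, 65.4, 112 and 150.3 in flower replicates 1 to 4, against 384, 150.1, 365 and 218 in stem replicates 1 to 4 and 350, 199 and 205 in leaf replicates 1 to 3. All flower arrays lay below all leaf arrays, and flower replicate 4 lay within 1 unit of stem replicate 2. EXPA16 fell in flower against stem, with a log2 fold change of -1.22 ± 0.31 (SE, n = 4 each, limma adjusted p = 0.0069), and against leaf, with -1.13 ± 0.33 (SE, n = 4 and 3, limma adjusted p = 0.0186). The 2 contrasts share the flower arrays. Stem and leaf were not distinguished, with a log2 difference of stem over leaf of 0.10 (95% interval -0.62 to 0.81, adjusted p = 0.857).

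Against stem, the EXPA16 difference was -1.29 within greenhouse arrays, which rests on the same single stem array. It was -1.48 within growth chamber arrays, with 2 arrays a group, and was called there. Flower and stem replicates 2 and 3, which are among these arrays, have site labels in doubt. EXPA16 had 150.1 in stem replicate 2 and 365 in stem replicate 3, so both values depend on these labels. The within-site fits were not repeated with sites exchanged. The call against leaf did not hold within greenhouse arrays (-0.53, adjusted p = 0.159), and the growth chamber arrays, with 1 leaf array, gave -1.95 (adjusted p = 0.0476). It was lost without leaf replicate 1 (-0.89), flower replicate 1 (-1.01) or flower replicate 2 (-1.003), with trimmed mean scaling (-0.87), with a pseudocount of 100 (-0.82) and with GapC scaling (-0.34). Against stem it was lost with trimmed mean scaling (-0.95), GapC scaling (-0.92) and a pseudocount of 100 (-0.90).

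EXPA4 and EXPA16 were the called members. In flower against stem, 1 member was higher and 1 lower of 7, where 18.0% of all 17526 probe sets tested were called, 9.86% higher and 8.10% lower. In flower against leaf, 1 of 7 was called, lower, against 18.4% of all probe sets, of which the lower ones were 9.27%. In stem against leaf, limma called 0 of 7, against 18.7%, and 3 members (EXPA4, EXPA15 and EXPA20) had an unadjusted p under 0.05, which 43.1% of all probe sets had. Groups did not overlap for 1 of 7 members in flower against stem (33.1% of all probe sets), 1 in flower against leaf (41.9%) and 2 in stem against leaf (39.3%). None of these shares sets the family apart from the rest of the array. The median log2 fold change of the members was 0.70 in flower against stem (-0.03 over all probe sets), or 0.39 without EXPA20, which entered mainly through flower, -0.45 in stem against leaf (-0.04) and -0.002 in flower against leaf (-0.02).

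**Figure D2:**
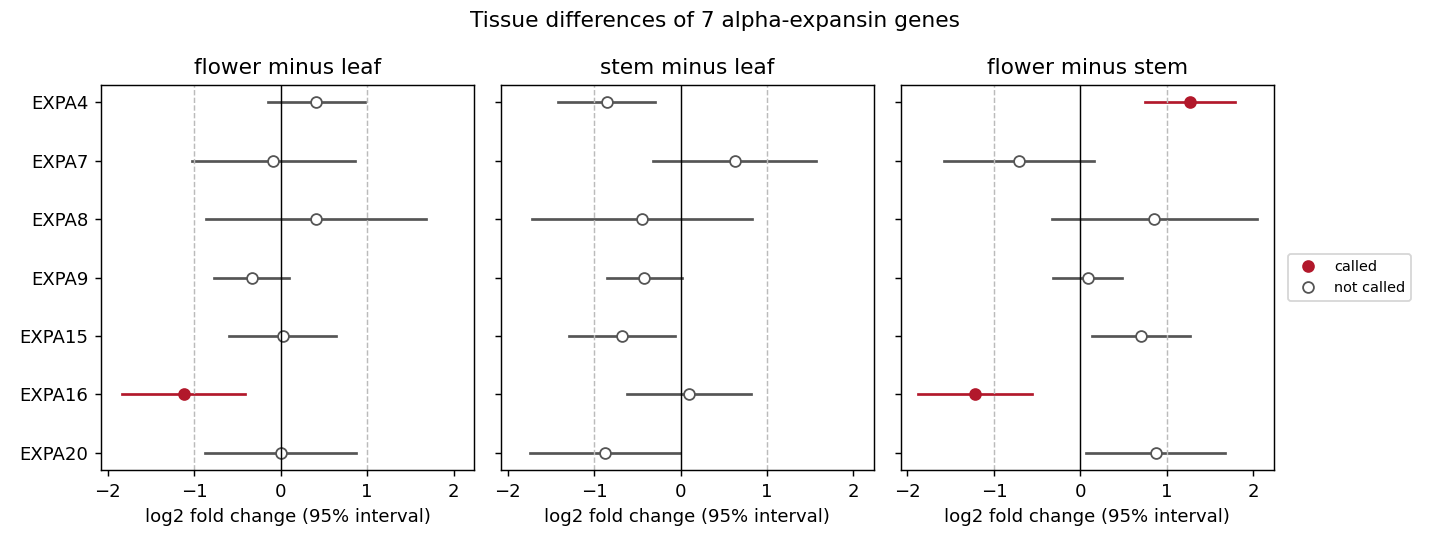
Log2 fold changes of the 7 members in the 3 organ contrasts, as points with 95% intervals from the limma fit over 11 arrays. Filled points were called, and dashed lines mark the minimum change. EXPA4 (1.26) and EXPA16 (-1.22) were called in flower against stem and EXPA16 (-1.13) in flower against leaf.

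Among the members that were not called, EXPA15 (AT2G03090) had 1322, 917, 893 and 477 in flower, 634, 539.6, 429.8 and 459.8 in stem and 658, 1169.8 and 756 in leaf, in replicate order. Each stem array lay below each leaf array, while the lowest flower array was within the stem range. Its log2 difference was 0.70 ± 0.27 (SE) for flower over stem (adjusted p = 0.0546) and -0.68 ± 0.29 for stem over leaf (adjusted p = 0.0852). EXPA20 (AT4G38210) had 131, 95.3, 135 and 28.4 in flower, 57.7, 30.8, 27.9 and 23.0 in stem and 96.4, 51.1 and 131 in leaf. Flower replicate 4 was as low as the stem arrays. The signal rule admitted EXPA20 mainly through flower, so a higher flower value is in part a result of how it was chosen. Its log2 difference of flower over stem was 0.87 ± 0.38 (SE, adjusted p = 0.0862), and without flower replicate 4 it was 1.196 and was called (adjusted p = 0.0148). With trimmed mean or GapC scaling it was called too, at 1.09 in each case.

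EXPA9 (AT5G02260) varied least between arrays. It had 254, 309, 198 and 209 in flower, 208, 221, 194 and 279 in stem and 365, 292.5 and 279 in leaf, in replicate order. Flower and stem overlapped, and stem and leaf met within 1 unit, and its largest organ difference was -0.42 ± 0.20 (SE) for stem over leaf (adjusted p = 0.127). EXPA7 (AT1G12560), the root hair gene, had 60.9, 104.5, 46.8 and 103 in flower, 285, 73.1, 82.6 and 222 in stem and 42.0, 155.5 and 76.0 in leaf. The higher pair of stem arrays lay above all flower and leaf arrays and the lower pair within their range. The log2 difference of stem over leaf was 0.63 (95% interval -0.31 to 1.56), and neither it nor the other contrasts passed (adjusted p = 0.191 to 0.906). With GapC scaling, stem over leaf was called at 1.07 (adjusted p = 0.0495).

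EXPA8 (AT2G40610), a gene known in Arabidopsis seedlings as a target of the growth-promoting transcription factor HBI1, had the widest spread within organs. It had 2310.5, 1461, 1374 and 575 in flower replicates 1 to 4. In stem it had 1034, 1116, 266 and 728.5, and in leaf 2793, 498 and 616. All 3 organs overlapped. Its residual SD around the organ means, over the 10 arrays with 1 stated site, was 1.06 log2 units, and 0.633% of tested probe sets had a larger one (median of all, 0.32). In order, EXPA8 was highest in flower, then leaf, then stem, and no neighbours in that order differed beyond the spread: flower over leaf was 0.41 (95% interval -0.87 to 1.69), stem over leaf -0.45 (-1.72 to 0.83) and flower over stem 0.86 (-0.33 to 2.04), with adjusted p of 0.647, 0.602 and 0.247.

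The EXPA8 values divided by growth site within each organ. In flower, the greenhouse arrays had 1374 and 575, against 1461 and 2310.5 in growth chamber arrays. In stem, the greenhouse array had 266, against 1034 and 1116 in growth chamber arrays. In leaf, the greenhouse arrays had 498 and 616, against 2793 in the growth chamber array. Every greenhouse array thus lay below every growth chamber array of its organ, and stem replicate 4, whose site is in doubt, lay between the stem groups at 728.5. The difference of greenhouse minus growth chamber was -1.02 in flower, -1.89 in stem and -2.27 in leaf on the log2 scale, or 2.03-fold, 3.71-fold and 4.82-fold less in the greenhouse.

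The fit of site with organ as a covariate gave EXPA8 a log2 fold change of -1.63 ± 0.27 (SE, 95% interval -2.22 to -1.03), with 5 greenhouse and 5 growth chamber arrays. Its unadjusted limma p of 8.1e-05 was the 10th smallest of 17526, and the adjusted p was 0.132, so it was not called. By limma the site contrast called 0 of 7 members and 0% of all probe sets. At an unadjusted p under 0.05 there was 1 member, EXPA8, and 11.1% of all probe sets. With site in the fit, the residual SD of EXPA8 was 0.53, against 1.06 with organ alone. The site differences of EXPA8 in the 3 organs were not distinguished from each other by the interaction of organ and site (unadjusted p = 0.127, adjusted p = 0.457, F test in limma).

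Whether the growth sites of the arrays with crossed factors were crossed too cannot be told from the labels. If the sites of the pairs with crossed factors (stem replicates 2 and 3, flower replicates 2 and 3) were exchanged, the EXPA8 difference was -0.75 ± 0.51 (SE). It was -0.79 ± 0.505 with the stem pair alone exchanged (limma adjusted p = 0.997) and -1.59 ± 0.29 with the flower pair alone exchanged (adjusted p = 0.828). None of these was called. With both pairs exchanged, greenhouse flower would hold 1461 and 575, against 2310.5 and 1374. Greenhouse stem would hold 1116, against 1034 and 266, so the separation by site would be lost in both organs. The exchange, the omission of arrays below and the stem and leaf fit were chosen after seeing the data. Leaving out those 4 arrays and the remaining stem arrays, the fit held flower replicates 1 and 4 and leaf replicates 1 to 3. The EXPA8 difference was then -2.13, with 1 flower array a site and 1 growth chamber leaf array. In stem and leaf arrays alone it was -2.08, and neither was called. The actin 3'/5' ratio was higher in greenhouse than in growth chamber arrays of each organ, 8.23 and 4.49 against 3.70 and 3.22 in flower, 12.2 against 2.67 and 3.90 in stem, and 2.76 and 3.29 against 1.83 in leaf. The GAPDH 3'/5' ratio was also higher in greenhouse flower (5.45 and 3.86 against 2.15 and 2.93) and stem (13.0 against 1.985 and 1.94). In leaf the GAPDH ratio went the other way, 2.25 and 2.385 in greenhouse against 2.61 in growth chamber. Without the 2 arrays of highest actin ratio, 1 of them the only greenhouse stem array, the EXPA8 difference was -1.95 (adjusted p = 0.162). Among the arrays left, greenhouse flower and leaf still had the higher actin ratio, so site and actin ratio cannot be told apart. Without flower replicate 3 alone the EXPA8 difference was -1.95 and was called (adjusted p = 0.0133). With stem replicate 4 taken as greenhouse or as growth chamber it was -1.40 or -1.58, and neither passed.

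**Figure D3:**
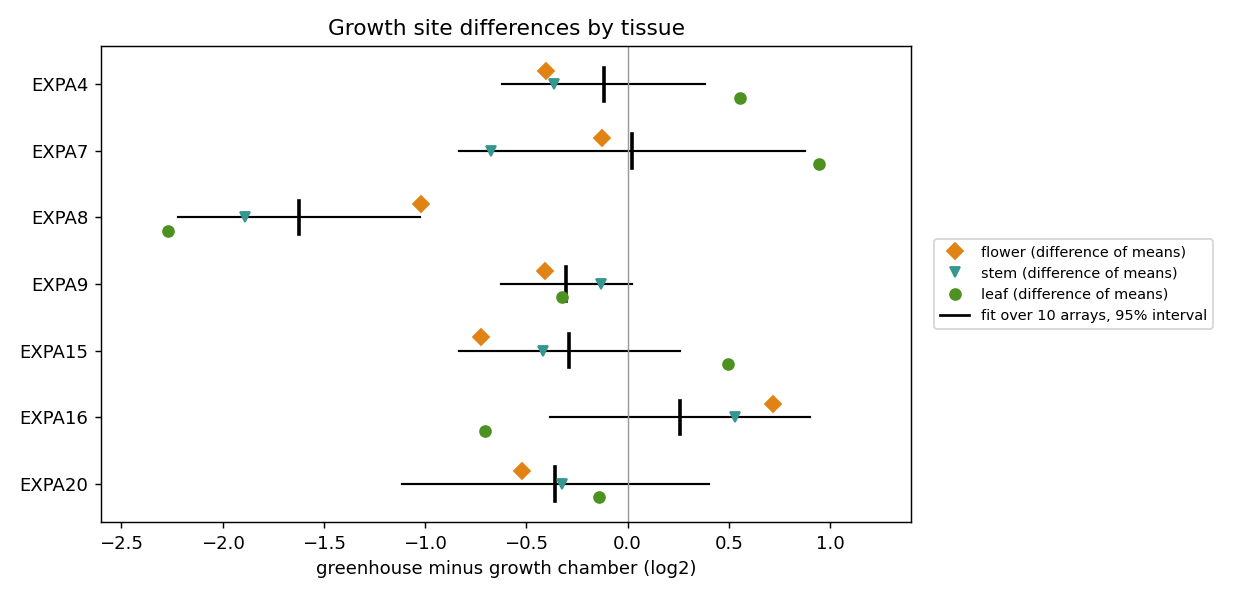
Difference of greenhouse minus growth chamber (log2) for each member within flower, stem and leaf (symbols), with the fit over 10 arrays and its 95% interval (bars). EXPA8 lies at -1.02, -1.89 and -2.27, while EXPA4, EXPA7, EXPA15 and EXPA16 have organs on both sides of 0.

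The organ differences of EXPA8 also moved in a fit with site as a covariate, which left out stem replicate 4. That fit takes the site labels as given, including those in doubt, and was not repeated with sites exchanged. Stem over leaf became -1.01 ± 0.35 (SE, adjusted p = 0.0457) and flower over stem 1.15 ± 0.32 (adjusted p = 0.0165), and both were then called. Flower over leaf was 0.14 (adjusted p = 0.782). Within growth chamber arrays (1 leaf array) these were -1.35 (adjusted p = 0.0285), 0.76 (adjusted p = 0.0674) and -0.59 (adjusted p = 0.245). Within greenhouse arrays (1 stem array) they were -0.97 (adjusted p = 0.180), 1.63 (adjusted p = 0.0559) and 0.66 (adjusted p = 0.258). Without leaf replicate 1, the bright growth chamber array, stem over leaf turned to 0.31 in the fit without site, and was not called.

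EXPA9 was the other member with each greenhouse array below each growth chamber array in all 3 organs. These 2 of 7 members stand against 3.32% of tested probe sets with that pattern, and EXPA9 did not pass the test. The greenhouse arrays had 198 and 209 in flower, 194 in stem and 292.5 and 279 in leaf, against 254 and 309, 208 and 221, and 365 in growth chamber arrays. Its site difference was -0.30 ± 0.15 (SE) in the fit (adjusted p = 0.470), and with the 2 pairs exchanged the value was 0.011. The other members had site differences from -0.36 for EXPA20 to 0.26 for EXPA16. EXPA4, EXPA7 and EXPA15 were higher in greenhouse than growth chamber leaf, by 0.56, 0.94 and 0.49, and lower in greenhouse flower and stem. EXPA16 went the other way, at -0.71 in leaf, 0.72 in flower and 0.53 in stem. The interaction of organ and site did not pass for any of the 7 (adjusted p = 0.407 to 0.961), and the growth chamber leaf and greenhouse stem were 1 array each, assumed to vary like the rest.

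**Figure D4:**
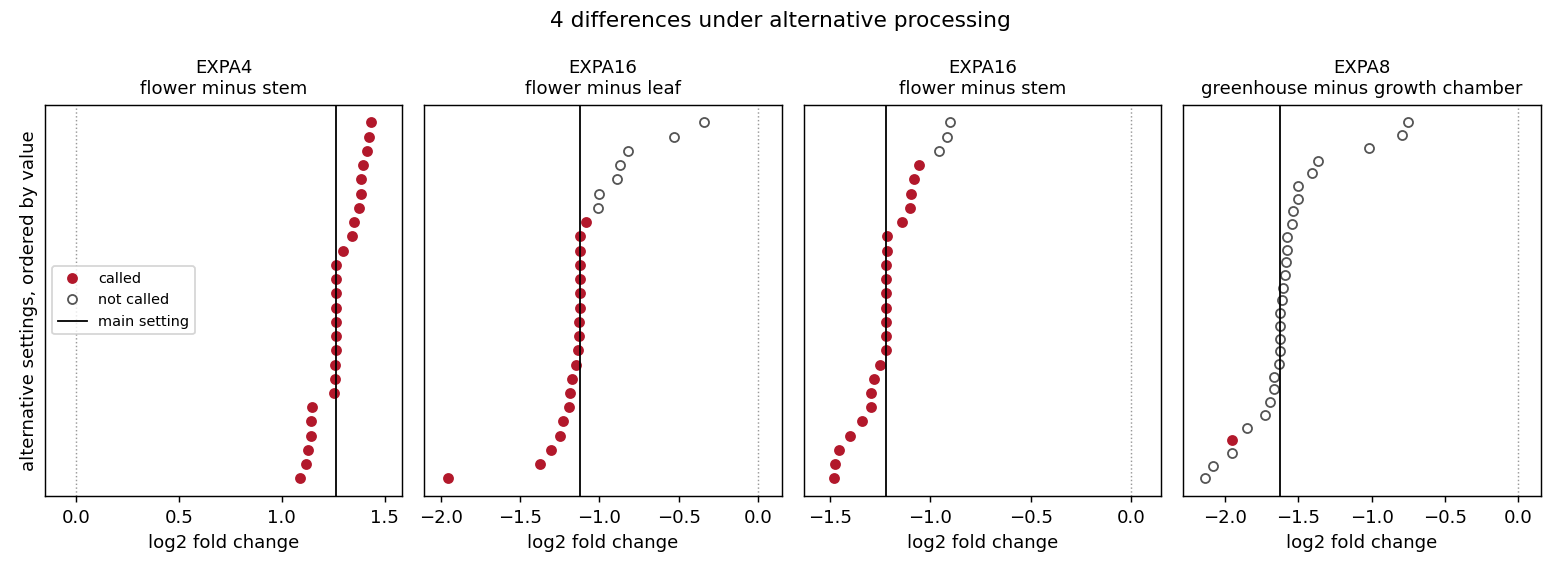
Log2 fold change of 4 differences under each alternative setting, ordered by value, with the main value as a solid line and 0 dotted. EXPA4 in flower against stem was called under all 26 settings (1.09 to 1.44). EXPA16 was called against leaf under 19 and against stem under 23 of 26. EXPA8 between sites was called under 1 of 29, with all 29 values below 0. Of these 29, the value with the replicate number as a block rests on leaf replicate 2.

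Within the family, likeness of pattern was measured as the root-mean-square difference of log2 profiles, each centred on its own mean over the 11 arrays, so a smaller value means more alike. EXPA4 and EXPA15 were the most alike at 0.33, followed by EXPA15 with EXPA20 at 0.42. EXPA8 and EXPA16 were the least alike at 1.35. Beyond the family, among 1324 tested probe sets with a gene symbol, EXPA4 was nearest to CRT1b, a calreticulin of the endoplasmic reticulum, at 0.28, to RALFL34, a secreted peptide, and to SWEET13, a sucrose transporter. The median over these probe sets was 0.81. EXPA16 was nearest to PIA1, a protein phosphatase, at 0.34, to APS3, an ATP sulfurylase, and to MAMI, with a median of 0.84.

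The probe set nearest to EXPA8 was that of another expansin, EXPB1, of the beta subfamily, at 0.54, ahead of NGA4, a transcription factor of lateral organ growth, at 0.63 and NET3A, an actin-binding protein, at 0.65 (median 1.06). EXPB1 had 142 and 66.6 in greenhouse flower, 72.3 in greenhouse stem and 72.4 and 213 in greenhouse leaf, against 269 and 287, 279 and 224, and 461 in growth chamber arrays. Its greenhouse arrays were also the lower ones in each organ. Its site difference was -1.41 ± 0.26 (SE, adjusted p = 0.162) and was not called. EXPB1 was found by its likeness to EXPA8 over the same arrays, so this is no separate support.

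Other cell wall gene families of the array were counted over genes with a named and tested probe set. Of all probe sets tested, 18.0% were called in flower against stem (9.86% higher, 8.10% lower), 18.4% in flower against leaf and 18.7% in stem against leaf. Beta-expansins (EXPB), a related expansin subfamily best known from grasses, had 1 of 4 called higher in flower than stem, EXPB5 at 1.16 ± 0.24 (SE). In flower against leaf 2 of 4 were higher, EXPB5 at 1.31 and EXPB3 at 1.11. In stem against leaf limma called 0 of 4, and 0 had an unadjusted p under 0.05, which 43.1% of all probe sets had. Expansin-like A genes (EXLA), related proteins with no shown wall-loosening activity, had 3 of 3 lower in flower than stem, led by EXLA3 at -3.78 and EXLA1 at -2.10. All 3 were higher in stem than leaf, led by EXLA2 at 5.19 and EXLA1 at 4.39, and 2 of 3 were higher in flower than leaf. These EXLA counts were the same with trimmed mean scaling, GapC scaling and median centring. EXLB1 was lower in flower than leaf, at -1.53, but with GapC scaling it was at -0.75 and not called.

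XTH genes, whose enzymes cut and rejoin xyloglucan, had 4 of 7 lower in flower than stem, with XTH18 at -3.67 ± 0.52 (SE) and XTH33 at -2.58 ± 0.27. In stem against leaf 5 of 7 were higher, led by XTH19 at 3.37 and XTH18 at 3.32, and in flower against leaf 3 of 7 were higher, led by XTH16 at 2.81. The first 2 counts were the same under the 3 other scalings. The median log2 fold change of flower over stem was -1.24 for XTH and -2.10 for EXLA, where that of all probe sets was -0.03. Between sites limma called 0 members of these 4 families and 0% of all probe sets. At an unadjusted p under 0.05 there were 1 of 4 EXPB, 1 of 3 EXLA, EXLB1 and 2 of 7 XTH genes, against 11.1% of all probe sets. No plasma membrane proton pump (AHA) or SAUR gene, both families that act in acid growth, had a probe set with a name.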

How the data were processed

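The deposited values are signal intensity per probe set and array, produced by the authors with Affymetrix Microarray Suite 5.0 and a target of 500, per the labels. The stated further scaling to GapC was not present in the values, whose 2% trimmed means were 500 on every array. Intensities were rescaled to that mean, quantile normalised across the 11 arrays, and put on a log2 scale after adding 32. Without 64 control probe sets, 17526 probe sets with at least 100 in at least 3 arrays were tested. Linear models used limma 3.58.1 (lmFit, then trended eBayes) under R 4.3.3, two-sided, with Benjamini-Hochberg adjustment over all tested probe sets. A call needed an adjusted p under 0.05 and an absolute log2 change of at least 1. The pseudocount shrinks folds of weak signals. Organ contrasts came from 1 fit to 11 arrays. The site contrast used 10 arrays with organ as a covariate. Detection calls were not used, and the number of arrays limits precision. Probe names came from the platform's table, locus tags from RefSeq TAIR10.1. The pipeline was tested on simulated data. Alternatives were other scalings, pseudocounts, filters, covariates, sites and omitted arrays.

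The members, gene lists and tests were chosen with earlier results of these data known. The rule for named genes took all members, the 3 nearest profiles of EXPA4, EXPA8 and called members, and up to 2 called genes of each wall list per contrast. COBL9, RSL4, PRP3 and the genes EXPA1, EXPA5 and EXPA10 are named as not read.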

Additional observations from a re-analysis of the deposited data

How the results depend on the processing

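Of the organ differences named above, EXPA4 in flower against stem kept its direction and call in all 26 alternatives, and EXPA8 between sites kept its direction in all 29 (-2.13 to -0.75, adjusted p 0.0133 to 1). Among the 29, the fit with the replicate number as a block has a site value that rests on leaf replicate 2, as described below. For every reversal or loss below the cause was not tested. The number of members called in flower against leaf was 1 and became 0 with trimmed mean scaling, a pseudocount of 100 or greenhouse arrays alone, and was 0 to 1 when single arrays were left out. In stem against leaf it was 0 and became 1 with GapC scaling (EXPA7), no minimum fold (EXPA4), site as a covariate (EXPA8), greenhouse arrays alone (EXPA4) or growth chamber arrays alone (EXPA8), and was 0 to 1 without single arrays. In flower against stem it was 2, became 1 with a pseudocount of 100 and 3 with site as a covariate (EXPA8 added), and was 2 to 3 without single arrays. With trimmed mean or GapC scaling the 2 were EXPA4 and EXPA20, both higher, in place of EXPA4 and EXPA16. Between sites it was 0, and 0 to 1 without single arrays.

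Over all probe sets, no minimum fold gave 5612, 6037 and 6220 calls in flower against leaf, stem against leaf and flower against stem, where 3233, 3272 and 3148 were called. GapC scaling moved the median log2 fold change to 0.70, 0.46 and 0.17, with 5678 calls in flower against leaf (5083 higher, 595 lower, against 1608 and 1625), 4301 in stem against leaf (3687 and 614, against 1636 and 1636) and 3376 in flower against stem (2229 and 1147, against 1728 and 1420). Median centring moved the median to -0.13 in flower against leaf (1363 higher, 2071 lower) and -0.15 in flower against stem (1339 and 2009), and trimmed mean scaling to 0.14 and 0.15. Between sites, 0 probe sets were called, 1 with the replicate block, 1 with stem replicate 4 taken as greenhouse, and 0 to 14 without single arrays.

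Log2 fold changes below turned sign, and none of these was a called difference. In flower against leaf, EXPA15 was 0.02 and became -0.21 with median centring, -0.025 with site as a covariate and -0.50 in greenhouse arrays. EXPA20 was -0.002 and became 0.26 with trimmed mean scaling, 0.64 with GapC scaling, 0.014 with a pseudocount of 100 and 0.17 in growth chamber arrays. EXPA7 was -0.09 and became 0.20 with trimmed mean scaling, 0.63 with GapC scaling, 0.61 in growth chamber arrays and 0.066 without the 2 arrays of highest actin ratio. EXPA8 became -0.59 in growth chamber arrays and EXPA9 0.47 with GapC scaling. In stem against leaf, EXPA16 became -0.47 in growth chamber arrays and -0.049 without the 2 arrays of highest actin ratio, EXPA7 -0.31 in greenhouse arrays, and with GapC scaling EXPA8 became 0.11 and EXPA9 0.078.

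Between sites, EXPA15 became 0.039 and EXPA4 0.10 in stem and leaf arrays. EXPA16 became -0.47 with both pairs exchanged and -0.23 with the stem pair exchanged. In flower and leaf arrays without crossed factors EXPA16 was -0.03, and in stem and leaf arrays -0.087. EXPA7 became -0.008 with a pseudocount of 100, -0.05 with stem replicate 4 as growth chamber, -0.13 in flower arrays and -0.03 with the stem pair exchanged, and EXPA9 became 0.011 with both pairs exchanged. Without single arrays, the reversing results ranged from -0.18 to 0.29 (EXPA15), -0.27 to 0.33 (EXPA20), -0.40 to 0.27 (EXPA7) and -0.041 to 1.16 (EXPA8) in flower against leaf, from -0.026 to 0.18 (EXPA9) in flower against stem, from -0.39 to 0.021 (EXPA4) and -0.34 to 0.30 (EXPA7) between sites, and from -0.071 to 0.33 (EXPA16) and -0.90 to 0.31 (EXPA8) in stem against leaf.

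The labels state no pairing by replicate number. Deviations of same-numbered arrays correlated at 0.089 to 0.15 for flower with stem, where 1 of 4 pairs missed the minimum of 0.1 set for taking numbers as pairs, and at -0.16 to 0.03 with leaf. In flower with stem, 8 of 8 arrays had their best match in the array of the same number, and 1 of 12 did in the pairs with leaf. The 8 are 4 pairs, each seen from both sides, and are a hint of pairing from the data and not from the design. Flower and stem replicates 1 to 3 also share a stated site by number. Replicates 3 of both organs had the highest actin 3'/5' ratios (8.23 and 12.2). Whether these alone give the matches was not tested. With the replicate number as a block, calls numbered 3181, 3273 and 3167 in the organ contrasts, and the members called were unchanged in number. The block turned EXPA20 in flower against leaf to 0.21. Between sites it turned EXPA15 to 0.80 and EXPA4 to 0.97, and gave -1.73 for EXPA8. In the site fit only number 2 held both sites, with leaf replicate 2 in the greenhouse and flower and stem replicates 2 in the growth chamber. The blocked site values thus rest on leaf replicate 2, and they cannot tell site from that array.

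EXPA20 was not tested at a signal minimum of 200 or when flower replicate 1, flower replicate 3 or leaf replicate 3 was left out, nor EXPA7 at that minimum. The site contrast rests on 10 arrays, with 1 greenhouse stem and 1 growth chamber leaf.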

Other observations

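The EXPA probe sets paired with 1 gene that missed the signal rule were near the low end of the arrays and were not members of any test reported here. EXPA18, like EXPA7 a root hair gene, had a normalised intensity of 69.2, 16.9, 52.3 and 5.8 in flower replicates 1 to 4, 150.9, 68.9, 73.9 and 70.7 in stem replicates 1 to 4 and 19.8, 28.8 and 80.7 in leaf replicates 1 to 3. Stem replicate 1 was the highest array for EXPA18, as it was for EXPA7.

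EXPA21 to EXPA25 and EXP26 lie within 2 genes of at least 1 other of them in the RefSeq gene table, and 4 of these 6 genes share their probe sets. The probe set of EXPA24 had 127, 147, 16.2 and 37.0 in flower replicates 1 to 4, against 8.6 to 14.3 in stem and 9.1 to 18.5 in leaf. The probe set shared by EXPA25 and EXPA23, which cannot be split between them, had 111, 105, 100.3 and 24.3 in flower, 58.2, 13.6, 9.1 and 13.9 in stem and 14.0, 12.9 and 13.8 in leaf. This shared probe set met the signal minimum, in 3 flower arrays, and counted among all probe sets tested, but it was no member because it is paired with 2 genes. Flower replicates 1 and 2 were the highest arrays for both probe sets. EXPA21 differed from them, with 59.8, 10.6, 9.6 and 55.8 in flower and 96.4, 93.2 and 15.5 in leaf, and stayed under 100 on all arrays. The probe set shared by EXP26 and EXPA22 stayed at 41.7 or less.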
